A study of Mus musculus with 48 samples.

Results

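The hypothalamus of Per3 5/5 mice was compared with that of wild-type (WT) mice, using the 16 arrays labelled as hypothalamus of these 2 genotypes out of 48 arrays in the series (8 Per3 5/5 and 8 WT mice, 1 array per mouse). Every mouse had been kept awake for 12 h of the light phase and no rested mouse was measured, so the differences given here are between genotypes after sleep loss. Per3 5/5 mice are homozygous for a knock-in in which the mouse exon at the repeat region of Per3 is replaced by the human exon that codes for 5 repeats. The series also holds 8 Per3 4/4 mice, which carry the human exon with 4 repeats, and frontal cortex from the same 24 mice. Both knock-in lines and the WT line were made on a C57BL/6 background from conditional transgenic founders by crossing with mice that express Cre everywhere, and the experimental lines no longer carried Cre. The labels give neither age nor sex, and they do not say whether mice of one genotype were littermates.

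Per3 is one of the Period genes of the circadian clock, whose protein is phosphorylated by casein kinase and partners with cryptochromes. The hypothalamus holds the central clock in the suprachiasmatic nucleus and neurons that release peptides for feeding, arousal, stress and pituitary control. It lies against the third ventricle, which is lined by ependymal cells with motile cilia and by tanycytes, and it borders the choroid plexus, the meninges and the pituitary stalk. A dissected hypothalamus can therefore carry different amounts of these neighbours, and in bulk RNA fewer cells of a type and less RNA per cell cannot be told apart.

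Levels are log2 signal relative to the 75th percentile of the array, so that a level of 0 equals that percentile, and are given as the lowest, the median and the highest of 8 arrays. Differences are log2 differences of Per3 5/5 minus WT from limma, and a probe was called at a Benjamini-Hochberg adjusted p under 0.05 over all 30735 probes tested. Levels of different probes cannot be set against each other, because probes differ in brightness.

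The 75th percentile of the signal ran from 917 to 1217 intensity units on the Per3 5/5 arrays and from 1206 to 1884 on the WT arrays, and 29395 to 32966 probes per array were well above background. Arrays of a genotype correlated across probes with r of 0.958 to 0.993. Most markers fitted the label hypothalamus in all 16 mice. Of 10 neurosecretory peptide genes tested, 7 were higher in hypothalamus than in cortex in every mouse (median difference 4.44). So were 27 of 43 hypothalamic and basal forebrain transcription factors, while 4 of the 43 were lower in every mouse. All 15 genes of cortical excitatory neurons were lower (median -3.60). Of 12 thalamic genes, 7 were higher and 1 lower in every mouse (median 1.64). Per the file headers the arrays were scanned on 3 days. Day 1 held Per3 5/5 replicates 1 to 4 and no WT mouse, day 2 held WT replicates 1 to 5 and no Per3 5/5 mouse, and day 3 held Per3 5/5 replicates 5 to 8 and WT replicates 6 to 8. The hypothalamus of WT replicate 8 carried pituitary transcripts. Each result is therefore given with scan day as a block, and where it matters on day 3 alone and without WT replicate 8.

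Without a block, 5788 of 30735 probes were called (18.8%), 3159 higher and 2629 lower in Per3 5/5 mice. The median absolute difference of the called probes was 0.43, and 179 differed by more than 1. The split between directions moved with the scaling, to 1719 higher and 3852 lower when each array was centred on its median. With scan day as a block, 644 probes were called (2.1%), 298 higher and 346 lower, and 571 of them were also called without it, with the same sign. With the block and without WT replicate 8, 19 probes were called (0.0618%), 17 of them among the 571. Single mice of day 3 decided how many probes passed with the block, with 36 calls without WT replicate 6, 39 without Per3 5/5 replicate 7, 64 without Per3 5/5 replicate 8, 130 without Per3 5/5 replicate 6 and 1676 without Per3 5/5 replicate 5. On day 2, leaving out WT replicate 1 gave 392 calls, and WT replicate 3 gave 1466; without Per3 5/5 replicate 3 of day 1 there were 339. On day 3 alone (4 against 3 mice) 1 probe was called by limma, with 5485 at an unadjusted p under 0.05. The groups of 8 did not overlap at 818 probes (2.66%).

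**Figure D1:**
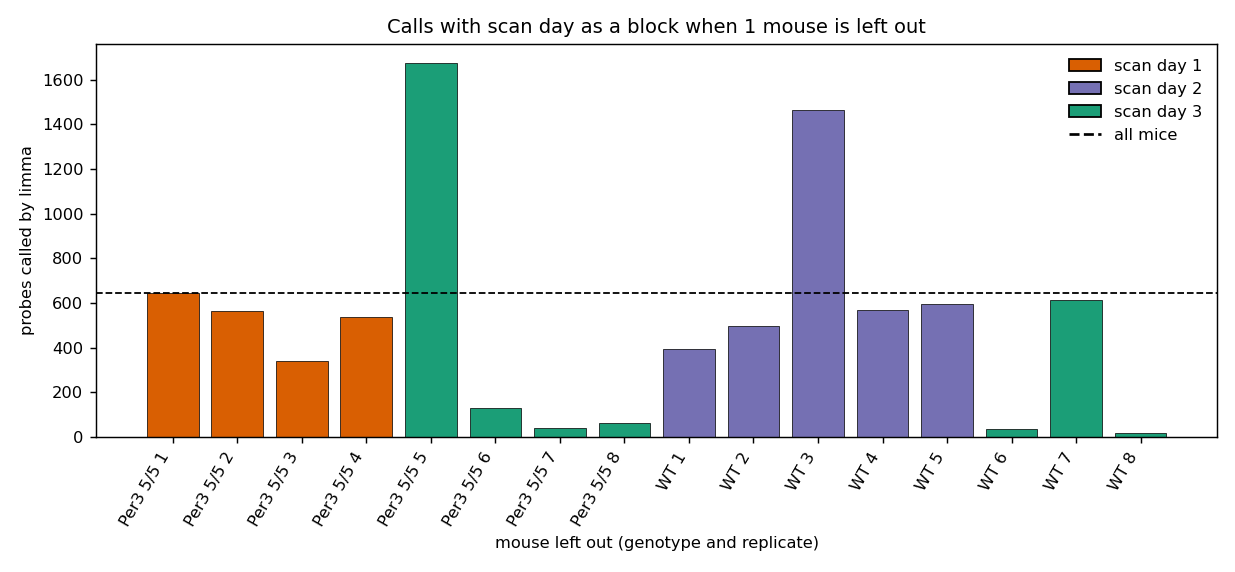
Number of probes called by limma between Per3 5/5 and WT hypothalamus with scan day as a block when 1 mouse is left out (vertical axis, probes; horizontal axis, the mouse left out), coloured by the scan day of that mouse; the dashed line is the count with all mice. The count falls from 644 to between 19 and 130 without WT replicate 6 or 8 or without Per3 5/5 replicate 6, 7 or 8, all scanned on day 3, and rises to 1676 without Per3 5/5 replicate 5.

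The targeted gene was represented by 1 Per3 probe, and whether it lies within the replaced exon is not given in the sources used here, so its level does not check the knock-in itself. It was at -3.40, -3.18 and -2.50 in Per3 5/5 and -3.82, -3.58 and -3.38 in WT. Of the Per3 5/5 arrays, 7 of 8 lay above all WT arrays. The difference was 0.47 (SE 0.13, adjusted p 0.0147 by limma; exact two-sided permutation p 0.000466, 0.000932 when adjusted over the 4 Per3 and Homer1 probes). With scan day as a block it was 0.32 (adjusted p 0.156), and on day 3 alone it was 0.54 with an exact permutation p of 0.0286, the smallest that 4 against 3 mice allow.

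Genes of motile cilia were the group with the most calls in 1 direction once scan day was in the fit. The list was chosen after values had been seen and so carries no test. It holds axonemal dyneins, radial spoke and central pair proteins, assembly factors and other proteins of the ciliary shaft. It also holds genes whose proteins act elsewhere, among them the transcription factor Foxj1 and Spag4 of the nuclear envelope. Of 98 members tested (105 on the array), 36 were lower and 3 higher in Per3 5/5 hypothalamus without a block, against 10.9% and 9.66% of 15924 named genes. With the block, 22 were lower and 1 higher, against 1.56% and 0.873% of all genes, and 21 were lower in both fits. The median difference of the list was -0.26 without and -0.37 with the block, beside -0.02 and -0.03 over all genes. In cortex of the same mice the median of these genes was 0.06.

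Enkur, which encodes the axonemal protein enkurin and was singled out after its values were seen, had the smallest adjusted p of all probes without the block. It was at -1.25, -1.07 and -0.81 in Per3 5/5 and -0.48, -0.29 and -0.14 in WT, so that no array of one genotype reached the other. The difference was -0.78 (SE 0.08, adjusted p 3.38e-05 by limma), -0.72 with the block (adjusted p 0.00454) and -0.75 with the block and without WT replicate 8 (adjusted p 0.0135). Dnah5, a heavy chain of the outer dynein arm that powers the ciliary beat, was at -3.74, -2.59 and -2.23 in Per3 5/5 and -2.19, -2.02 and -1.41 in WT. The groups did not overlap, and the difference was -0.81 (adjusted p 0.00313 by limma; -0.86 and 0.0338 with the block). WT replicate 3 was the highest array for Dnah5 (-1.41) and Per3 5/5 replicate 7 the lowest (-3.74).

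Akap14, which anchors protein kinase A in cilia, was at -5.08, -3.53 and -2.84 in Per3 5/5 and -2.90, -2.77 and -2.52 in WT. Tcte3, a dynein light chain first found in testis, was at -6.05, -5.36 and -4.68 in Per3 5/5 and -4.67, -4.32 and -3.12 in WT, with no overlap. Capsl, a calcium-binding protein of ciliated cells, was at -3.63, -1.66 and -1.19 in Per3 5/5 and -1.47, -1.14 and -0.91 in WT. The medians of all 3 were lower in Per3 5/5, and the differences were -1.02, -1.16 and -0.80 without the block (adjusted p 0.00381, 0.00199 and 0.0281 by limma) and -1.17, -0.91 and -1.10 with it (adjusted p 0.0258, 0.0365 and 0.036). Other members that were lower in both fits, named after their values were seen, were Spag6l (-0.88 with the block) and Spag16 (-0.74) of the central pair, Rsph4a (-0.71) of the radial spoke head, Lrrc6 (-0.70) and Dnaaf4 (-0.36), which help to assemble dynein arms, and Tekt1 (-0.36), a filament of the microtubule wall. Foxj1, the transcription factor that switches on motile cilium genes, was not called (-0.21, adjusted p 0.148 by limma; -0.22 and 0.324 with the block). Spag4 was the member called higher in both fits (0.38 and 0.31); its protein sits in the nuclear envelope and in sperm tails.

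The mean log2 level of the 98 genes was -1.21, -1.34, -1.24 and -1.37 in Per3 5/5 replicates 1 to 4 (day 1), -1.47, -1.61, -1.84 and -1.71 in replicates 5 to 8 (day 3), and between -1.35 and -1.11 in the 8 WT arrays. Per3 5/5 replicates 5 to 8 all lay below every WT array. Of the day 1 arrays, replicate 4 lay just below the lowest WT array (-1.368 against -1.352), and replicates 1 to 3 lay within the WT range. Without Per3 5/5 replicates 6 to 8, an alternative added after the levels had been seen, 22 members were still lower and 6 higher, against 13.9% and 14.5% of all genes, and the median difference was -0.13. So the count of lower members without the block shrank from 36 to 22 without those 3 arrays, a factor of more than 1.5. Other scalings kept the direction. With median centring 39 members were lower and 1 higher, beside 2531 lower and 754 higher of 15924 named genes. With normexp background correction 15 members were lower and 1 higher, beside 650 and 604 of all named genes.

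Many ciliary genes carry in their promoter an X-box, the imperfect palindrome bound by RFX transcription factors. To show what these promoters look like, the window from 250 bases before to 50 bases after the transcription start was read from RefSeq (GRCm38.p6), and 15 of the 21 genes lower in both fits had such a window. A loose spelling of the X-box, GTNNCC and GNAAC with 3 bases of any kind between them, on either strand, was found in the windows of 4 of these 15 genes (26.7%), of 18 of 80 ciliary genes tested that had a window (22.5%) and of 673 of 27025 genes in all (2.49%). The stricter spelling that begins with GTTNCC, a subset of it, was found in 3 of 15, 11 of 80 (13.8%) and 253 of 27025 genes (0.936%). The spellings were chosen with the promoters at hand, and a match is a description of the letters, not a binding site. The 4 windows with a match are printed 5′ to 3′ along the gene's strand with every match in capitals, for Enkur (chr2:21205316-21205615, minus strand), Pifo (chr3:106001448-106001747, minus strand), Spag16 (chr1:69826720-69827019, plus strand) and Spag6l (chr16:16829314-16829613, minus strand).
Enkur: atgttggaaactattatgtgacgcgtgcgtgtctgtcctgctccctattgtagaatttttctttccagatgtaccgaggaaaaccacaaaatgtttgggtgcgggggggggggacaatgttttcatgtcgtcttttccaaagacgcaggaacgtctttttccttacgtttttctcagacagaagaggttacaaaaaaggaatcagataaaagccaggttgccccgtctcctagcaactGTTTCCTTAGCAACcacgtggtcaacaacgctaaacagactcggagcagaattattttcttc
Pifo: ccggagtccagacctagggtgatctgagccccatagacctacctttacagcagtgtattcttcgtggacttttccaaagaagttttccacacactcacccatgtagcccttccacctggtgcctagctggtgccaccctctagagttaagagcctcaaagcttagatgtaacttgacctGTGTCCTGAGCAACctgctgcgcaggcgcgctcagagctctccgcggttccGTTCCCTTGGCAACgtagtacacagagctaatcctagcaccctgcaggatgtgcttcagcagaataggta
Spag16: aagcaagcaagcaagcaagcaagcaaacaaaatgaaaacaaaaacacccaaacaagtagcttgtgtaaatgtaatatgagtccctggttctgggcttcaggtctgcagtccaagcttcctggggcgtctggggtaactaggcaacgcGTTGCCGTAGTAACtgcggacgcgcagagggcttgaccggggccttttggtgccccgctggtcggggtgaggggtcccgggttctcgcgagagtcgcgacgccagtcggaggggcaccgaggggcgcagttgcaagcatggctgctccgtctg
Spag6l: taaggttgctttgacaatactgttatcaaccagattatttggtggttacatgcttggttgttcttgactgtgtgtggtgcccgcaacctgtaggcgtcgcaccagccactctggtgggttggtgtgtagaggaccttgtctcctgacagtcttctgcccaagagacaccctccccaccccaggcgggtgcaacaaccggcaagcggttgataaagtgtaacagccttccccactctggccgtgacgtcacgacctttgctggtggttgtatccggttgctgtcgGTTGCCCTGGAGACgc
Enkur holds a match at bases 239 to 252 of its window, by the transcription start, Spag16 at 148 to 161 and Spag6l at 285 to 298. Pifo holds 2, at 180 to 193 and at 231 to 244. Those of Enkur and Spag16 and the second of Pifo also fit the stricter spelling.

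Genes of the ependyma, tanycytes and choroid plexus were lower where they were called. Of 15 ependymal and tanycyte genes tested, 5 were lower and 0 higher without the block and 2 were lower with it. Dnah5, Dnah9 and Dynlrb2, lower without the block, also belong to the motile cilium list, as do Foxj1, Hydin, Spag6 and Rsph1. The ependymal list is thus not separate from the ciliary one. Of 16 choroid plexus genes the counts were the same, beside 10.9% lower of all genes without the block and 1.56% with it. The medians were -0.23 and -0.26 without the block and -0.43 and -0.50 with it. Tmem212, a membrane protein of multiciliated cells, was at -1.59, 0.38 and 0.96 in Per3 5/5 and 0.82, 1.12 and 1.47 in WT, where WT replicate 3 has no value because its spot was an outlier. It was called lower (-1.05, adjusted p 0.0131 by limma; -1.23 and 0.0399 with the block), and Per3 5/5 replicates 6 to 8 (-0.66, -1.59 and -0.55) were apart from the other arrays of their genotype, which ranged from 0.31 to 0.96. Calml4, a calmodulin-like protein, was at -3.42, -1.14 and -0.80 in Per3 5/5 and -0.92, -0.65 and 0.04 in WT and called lower (-0.98, adjusted p 0.0163; -1.24 and 0.0335 with the block). Steap1, a metalloreductase, was at -4.76, -3.97 and -3.69 in Per3 5/5 and -3.80, -3.43 and -2.99 in WT and called lower (-0.71, adjusted p 0.00244; -0.79 and 0.0209 with the block). The mean log2 level of the choroid plexus genes was -3.38 to -2.87 in Per3 5/5 and -2.77 to -2.23 in WT, with no overlap, while their summed signal, to which bright genes add most, overlapped, at 14.1 to 17.8 times the 75th percentile in Per3 5/5 and 14.9 to 18.6 times in WT; that of the ependymal genes was 20.6 to 37.8 and 29.6 to 39.1 times, with medians of 29.9 and 36.3. The part that the amount of ventricular lining in the dissected tissue plays in the ciliary result was not tested.

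**Figure D2:**
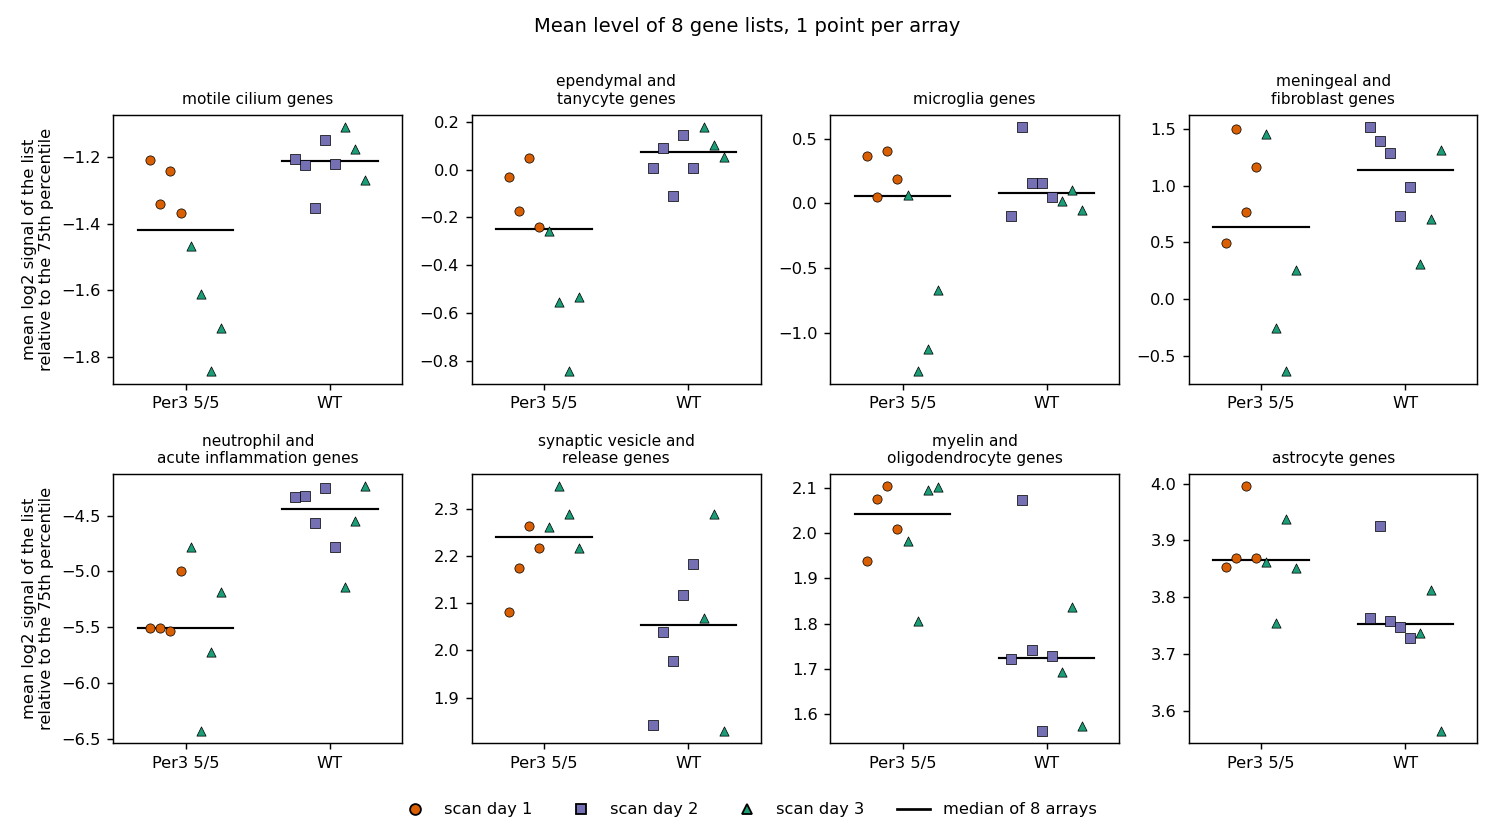
Mean log2 signal of 8 gene lists relative to the 75th percentile of the array (vertical axes) in Per3 5/5 and WT hypothalamus (horizontal axis), 1 point per array with colour and shape for the scan day and a line at the median of 8 arrays. Motile cilium and ependymal genes, lists that share members, lie lowest in the Per3 5/5 arrays of day 3. Microglial genes are low only in Per3 5/5 replicates 6 to 8, and neutrophil genes have the lower median in Per3 5/5, with overlap.

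Nr0b1 and Six6, transcription factors of the ventral hypothalamus, were lower in Per3 5/5 mice. Nr0b1 (also called Dax1), an orphan nuclear receptor that represses steroidogenic genes and marks ventromedial neurons, was at -3.53, -2.70 and -2.15 in Per3 5/5 and -1.84, -1.52 and -1.07 in WT. The groups did not overlap, and every Per3 5/5 array of either scan day lay below every WT array. The difference was -1.21 (SE 0.14, 2.31-fold lower, adjusted p 0.000248 by limma), -1.18 with the block (adjusted p 0.0062), -1.26 on day 3 alone and -1.15 with the block and without WT replicate 8 (adjusted p 0.0315). Six6, a homeobox gene of the ventral hypothalamus and the eye, was at -4.75, -3.60 and -3.26 in Per3 5/5 and -3.31, -2.75 and -2.03 in WT and was called lower (-0.97, adjusted p 0.00247; -1.13 and 0.0209 with the block), with WT replicate 7 (-3.31) inside the Per3 5/5 range. Lhx8, a LIM homeobox gene of basal forebrain cholinergic neurons, was higher at both of its probes, and the brighter one was at -2.61, -1.11 and 0.58 in Per3 5/5 and -3.76, -2.69 and -1.76 in WT (difference 1.64, adjusted p 0.0231; 2.26 and 0.042 with the block), with overlap.

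These were 3 of 43 hypothalamic and basal forebrain transcription factors tested. Without the block, 3 were higher (6.98%) and 8 lower (18.6%), beside 9.66% and 10.9% of all genes. With the block 1 (Lhx8) was higher (2.33%) and 2 lower (4.65%), beside 0.873% and 1.56% of all genes. The median difference without the block was 0.02. Genes of neighbouring regions were followed as well, beside the same shares of all genes. Among cortical excitatory neuron genes, 13.3% were higher without the block and 13.3% with it. Of 15 cortical excitatory neuron genes, 2 were higher in both fits, namely Tbr1 (-5.17, -3.49 and -3.08 in Per3 5/5 and -5.91, -4.77 and -3.93 in WT) and Cux2 (-0.68, -0.33 and 0.24 in Per3 5/5 and -1.45, -0.81 and -0.26 in WT), both transcription factors of cortical neurons. Their differences were 1.12 and 0.57 without the block (adjusted p 0.0273 and 0.00728 by limma) and 1.54 and 0.59 with it (adjusted p 0.0437 and 0.0398), and the groups overlapped in each. The summed signal of that list was 8.53 to 12.2 times the 75th percentile in Per3 5/5 and 7.95 to 15.0 times in WT. Of 12 striatal genes 2 were higher without the block (16.7%) and 0 with it. Of 12 thalamic genes 1 was lower without the block (8.33%, near the share of all genes) and 0 with it. The part of the line of dissection in the calls of these transcription factors was not tested.

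The difference in hypothalamus was set against that in cortex of the same mice, by taking hypothalamus minus cortex in each mouse. Of 30735 probes, 3 were called by limma (0.00976%) and 1930 had an unadjusted p under 0.05. They were Nr0b1 (difference of effects -1.93, adjusted p 0.0273), the predicted gene Gm9758 (-2.98, adjusted p 0.0273) and a probe with no gene name here (-1.06, adjusted p 0.0273). None of the 3 probes was well above background on any of the 16 cortex arrays, so that the cortex side holds no measured level and a difference between the tissues is not shown by these values. Gm9758 was above background on 0 of 8 Per3 5/5 and 8 of 8 WT hypothalamus arrays, at -9.04, -8.07 and -6.85 in Per3 5/5 and -7.01, -6.06 and -3.73 in WT, so that it entered the fit through WT alone; against the floor it was at least 1.85-fold lower in Per3 5/5, but with normexp its difference was -0.22 and not called (adjusted p 0.623 by limma). The call of all 3 was lost without WT replicate 8, among other mice, when 0 probes passed.

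**Figure D3:**
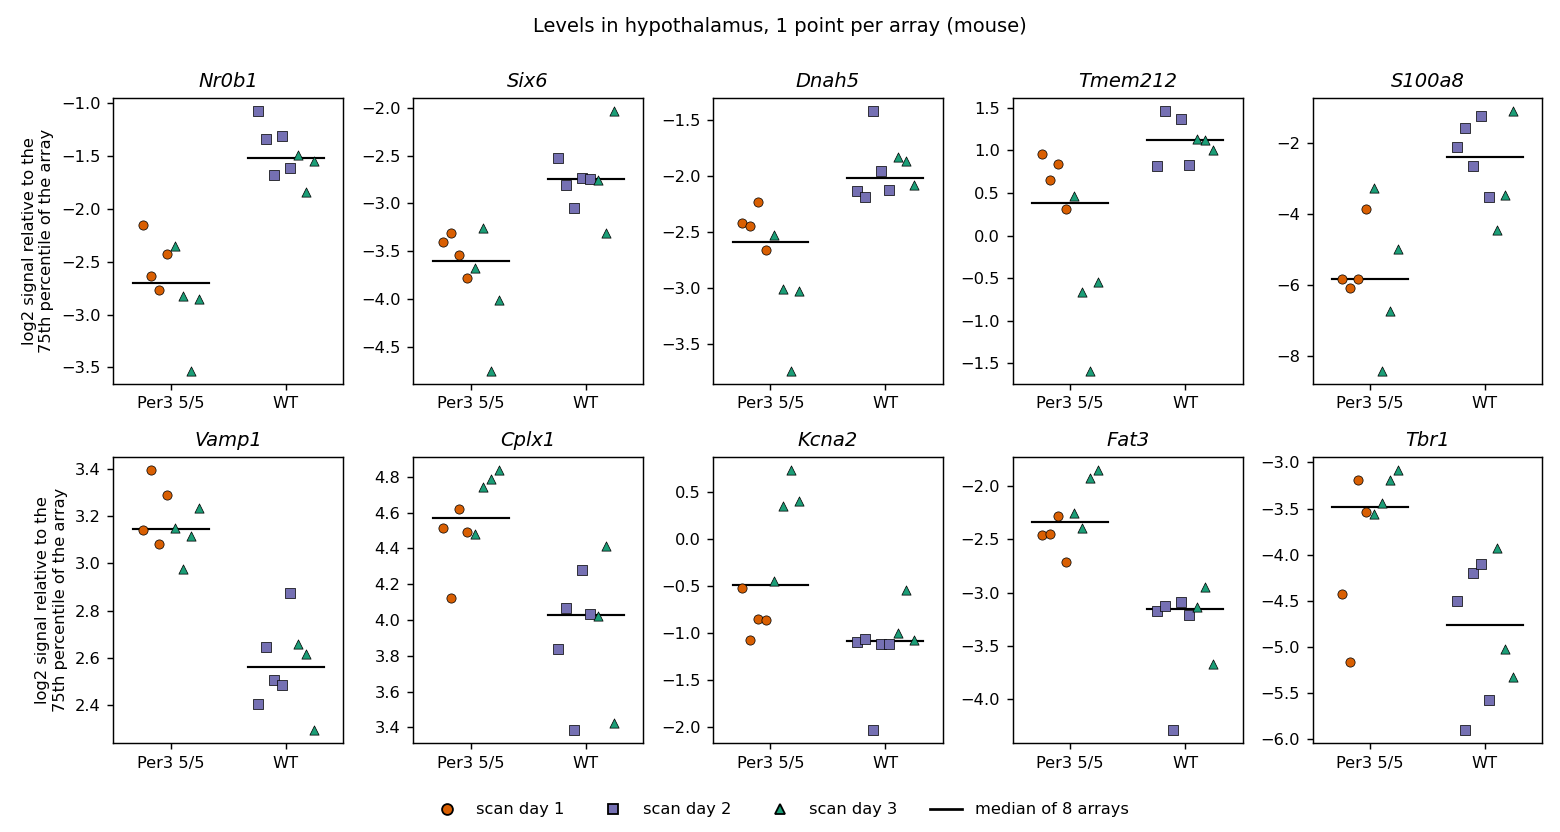
Log2 signal relative to the 75th percentile of the array (vertical axes) for 10 genes in Per3 5/5 and WT hypothalamus (horizontal axis), 1 point per array with colour and shape for the scan day and a line at the median of 8 arrays. The genotypes do not overlap at Nr0b1, Dnah5, Vamp1 and Fat3, and at Dnah5, Tmem212 and Kcna2 Per3 5/5 replicates 6 to 8 of day 3 lie farther from WT than the other Per3 5/5 arrays.

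Genes of neutrophils and acute inflammation were lower where they were called, and S100a8 had the largest difference without the block of the genes called lower in both fits and well above background on at least 6 arrays of both genotypes. Of 23 tested, 9 were lower and 0 higher without the block, and 4 were lower with it, with a median difference of -0.55 and -0.46, beside 10.9% and 1.56% lower among all genes. With normexp the median was 0.02. The mean log2 level of the list was between -6.43 and -4.78 in Per3 5/5 and between -5.14 and -4.24 in WT, so that the genotypes overlapped. S100a8 and S100a9 encode the subunits of calprotectin, an abundant protein of the neutrophil cytosol. S100a8 was at -8.41, -5.83 and -3.26 in Per3 5/5 and -4.46, -2.38 and -1.08 in WT, and S100a9 at -5.54, -3.04 and -0.54 in Per3 5/5 and -1.74, 0.52 and 1.21 in WT. Their differences were -3.11 and -2.78 (8.64-fold and 6.89-fold lower, adjusted p 0.00349 and 0.00447 by limma), and -3.24 and -2.91 with the block (adjusted p 0.0382 and 0.0454). In both genes the highest Per3 5/5 arrays reached into the WT range.

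Chil3, a chitinase-like protein of neutrophils and macrophages, was at -6.98, -5.10 and -3.26 in Per3 5/5 and -4.23, -2.72 and -2.07 in WT (-2.01, adjusted p 0.00847; -2.17 and 0.0486 with the block). Padi4, which citrullinates histones in neutrophils, was at -6.31, -5.73 and -5.47 in Per3 5/5 and -5.62, -4.77 and -3.93 in WT (-1.03, adjusted p 0.00217; -1.22 and 0.0197 with the block). Fpr2, a formyl peptide receptor, was well above background on 0 of 8 Per3 5/5 and 6 of 8 WT arrays, so that it was at least 1.21-fold lower, and with normexp background correction its difference was 0.09. The granule genes Camp, Ltf and Ngp, named after their values were seen, were lower without the block (-2.84, -2.27 and -1.73) and had adjusted p of 0.052, 0.0528 and 0.052 with it by limma. Mmp8, Mmp9 and Mpo of the same cells were not called (-0.18, 0.17 and -0.19). Without Per3 5/5 replicates 6 to 8, 10 members were lower and 0 higher, and with normexp 3 were lower. The summed signal of the list was 0.532 to 1.99 times the 75th percentile in Per3 5/5 and 1.102 to 4.07 times in WT, so these are dim genes in this tissue. The part of blood left in the tissue was not tested; the summed signal of 4 erythrocyte genes was 82.3 to 375.7 times the 75th percentile in Per3 5/5 and 67.4 to 235.9 times in WT.

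Chemokines and interferon-induced genes were lower in a smaller share, 17.4% and 17.5% without the block, beside 10.9% of all genes. With the block 8.7% and 2.5% were lower, beside 1.56% of all genes. Of 23 chemokines, 4 were lower and 0 higher without the block and 2 were lower with it. Ccl11, which attracts eosinophils and is made at the choroid plexus and by other stromal cells, was at -6.89, -6.47 and -5.71 in Per3 5/5 and -5.93, -5.29 and -4.70 in WT (-1.04, adjusted p 0.00152; -1.06 and 0.028 with the block) and was above background on 3 of 8 Per3 5/5 and 8 of 8 WT arrays. Of 40 interferon-induced genes, 7 were lower and 0 higher without the block, and 1 with it. That gene was Ifih1, a sensor of viral double-stranded RNA, at -2.77, -2.33 and -2.08 in Per3 5/5 and -2.20, -1.83 and -1.24 in WT (-0.61, adjusted p 0.00354; -0.59 and 0.0448 with the block). Normexp left 1 chemokine and 2 interferon-induced genes lower.

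Microglial genes followed 3 arrays. Of all genes, 10.9% were lower without the block and 1.56% with it. Of 20 tested, 5 were lower and 0 higher without the block, among them Ptprc (-0.88, adjusted p 0.0241 by limma), the leukocyte antigen CD45, and P2ry12 (-0.82, adjusted p 0.0232), the purine receptor of resting microglia, and 0 were called with it. The mean level of the list was -1.30, -1.13 and -0.67 in Per3 5/5 replicates 6, 7 and 8, between 0.05 and 0.41 in the other 5 Per3 5/5 arrays and between -0.09 and 0.59 in WT. Without those 3 arrays 4 microglial genes were higher and 0 lower, beside 14.5% and 13.9% of all genes. The median difference of the list turned from -0.37 to 0.12. Ptprc itself was at -4.73, -3.04 and -2.40 in Per3 5/5 and -2.63, -2.37 and -2.10 in WT. Meningeal and fibroblast genes had the same 3 arrays lowest (-0.25, -0.63 and 0.26 in replicates 6, 7 and 8, against 0.31 to 1.52 in WT). Of 18 tested, 3 were lower without the block (16.7%) and 0 with it. Their median difference of -0.40 turned to 0.09 without those 3 arrays. Lum, a proteoglycan of connective tissue, was at -3.18, -1.79 and -0.90 in Per3 5/5 and -1.50, -1.17 and 0.04 in WT (-0.95, adjusted p 0.0267; -0.92 and 0.141 with the block).

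Pituitary genes set WT replicate 8 apart. The summed signal of 14 pituitary genes was 920.4 times the 75th percentile on that array, against a lowest of 20.1 and a median of 27.9 in WT and 6.54 to 74.3 in Per3 5/5. Growth hormone (Gh) was at 8.09 on that array and at -5.60 to -3.56 on the other WT arrays, and prolactin (Prl) at 7.89 against -5.72 to -2.15. In Per3 5/5, Prl ran from -8.82 to 4.70 and Gh from -5.66 to 2.10. Neither was called (-0.78 and -0.16, adjusted p 0.772 and 0.95 by limma), and without WT replicate 8 both differences turned positive (0.73 and 1.45). Single arrays of both genotypes thus stood far above the others of their group for these hormones.

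Tshb, the beta subunit of thyrotropin, was the pituitary gene called lower in both fits. It was at -6.95, -4.60 and -3.98 in Per3 5/5 and -5.21, -2.44 and 3.31 in WT, and WT replicate 8 stood at 3.31. The difference was -3.07 (adjusted p 0.00814 by limma), -3.61 with the block (adjusted p 0.0454), and without WT replicate 8 it was -2.32 (adjusted p 0.00587), or -2.17 with the block as well (adjusted p 0.0986). Of the other 7 WT arrays, 6 lay above all Per3 5/5 arrays, and WT replicate 7 (-5.21) lay among them. Pitx1, a homeobox gene of the pituitary anlage, was at -3.59, -2.73 and -1.21 in Per3 5/5 and -2.98, -1.25 and 2.62 in WT, with a difference of -1.64 (adjusted p 0.0254) and -1.97 with the block (adjusted p 0.0827). Cga, the subunit that thyrotropin shares with the gonadotropins, was at -1.06, 0.38 and 3.70 in Per3 5/5 and -0.57, 1.49 and 7.78 in WT and was not called (-1.57, adjusted p 0.159). Pomc, which hypothalamic arcuate neurons also make, was at 1.98, 4.22 and 4.86 in Per3 5/5 and 3.76, 4.53 and 7.36 in WT and was not called (-0.76, adjusted p 0.174). Lhb, Fshb, Lhx3, Lhx4, Ghrhr and Trhr were not called by limma in either fit, with differences from -0.69 (Fshb) to -0.20 (Ghrhr) without the block. Tshb is also made in the pars tuberalis at the base of the hypothalamus, and the part of attached pituitary tissue in its difference was not tested.

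**Figure D4:**
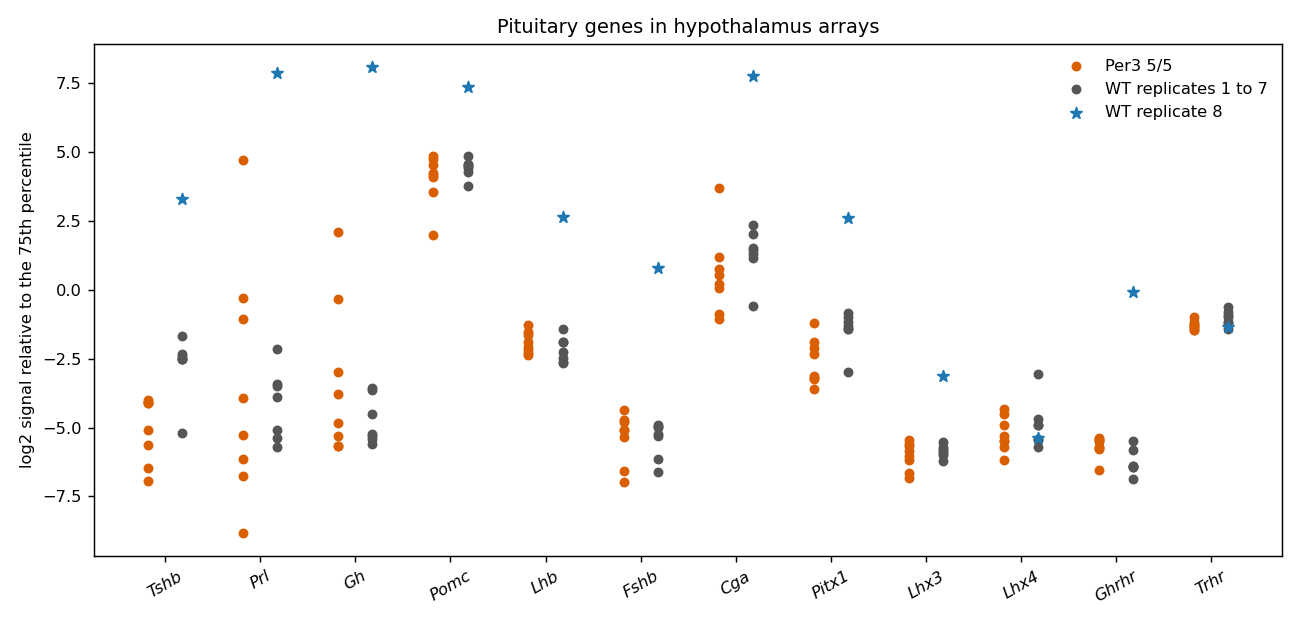
Log2 signal relative to the 75th percentile of the array (vertical axis) of 12 pituitary genes (horizontal axis) in each hypothalamus array of Per3 5/5 and WT mice, with WT replicate 8 as a star. That array is the highest WT array for 10 of the 12 genes, and Per3 5/5 arrays range from -8.82 to 4.70 at Prl.

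Genes of synaptic transmission moved upward where they were called. Of 35 synaptic vesicle and release genes tested, 11 were higher and 0 lower in Per3 5/5 without the block, against 9.66% and 10.9% of all genes. With the block 3 were higher, against 0.873% of all genes, and the median difference was 0.19 without and 0.24 with it. The counts moved with the scaling, as did those of all genes. With median centring 7 were higher and 3 lower, beside 754 higher and 2531 lower of 15924 named genes. Vamp1, a vesicle SNARE of fast fusion, was at 2.98, 3.15 and 3.40 in Per3 5/5 and 2.29, 2.56 and 2.88 in WT, with no overlap (0.61, SE 0.08, adjusted p 0.000445 by limma; 0.56 and 0.0139 with the block). Cplx1, the complexin that clamps and triggers release, was at 4.12, 4.57 and 4.84 in Per3 5/5 and 3.38, 4.03 and 4.41 in WT (0.64, adjusted p 0.00294; 0.66 and 0.0377 with the block). Syn2, a synapsin that tethers vesicles, was at 5.27, 5.49 and 5.84 in Per3 5/5 and 5.03, 5.26 and 5.43 in WT (0.28, adjusted p 0.0164; 0.37 and 0.0338 with the block). Not every release gene shared this, and Snap25 (-0.06) and Syt1 (0.16), named after their values were seen, were not called.

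Of 82 potassium channel genes, 18 were higher and 4 lower without the block (11 and 6 with median centring), against 9.66% and 10.9% of all genes, and 4 were higher and 1 lower with it. Kcnab2, an auxiliary subunit of the Kv1 channels, was at 1.97, 2.20 and 2.43 in Per3 5/5 and 1.28, 1.63 and 2.04 in WT (0.59, adjusted p 0.00126; 0.61 and 0.0197 with the block). Kcnc4, a voltage-gated potassium channel, was at 1.36, 1.56 and 1.76 in Per3 5/5 and 0.71, 1.11 and 1.32 in WT with no overlap (0.51, adjusted p 0.00187; 0.49 and 0.0304 with the block). Kcna2, a Kv1 channel of axons, was at -1.08, -0.49 and 0.73 in Per3 5/5 and -2.04, -1.08 and -0.54 in WT, and its 3 highest arrays were Per3 5/5 replicates 6 to 8. The exception was Kcna5, a Kv1 channel found in glia and muscle, which was lower at -0.95, -0.83 and -0.46 in Per3 5/5 and -0.35, -0.12 and 0.29 in WT with no overlap (-0.72, adjusted p 0.00111; -0.62 and 0.0275 with the block).

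Of 33 voltage-gated sodium and calcium channel genes, 4 (12.1%) were higher and 0 lower without the block, near the 9.66% of all genes, and 2 were higher with it. Cacnb3, a beta subunit of calcium channels, was at 1.29, 1.46 and 1.72 in Per3 5/5 and 0.40, 0.77 and 1.13 in WT with no overlap (0.69; 0.42 and adjusted p 0.0471 with the block by limma). On the receiving side, 4 of 24 glutamate receptor genes and 4 of 19 postsynaptic scaffold genes were higher and 0 and 1 lower without the block, and 0 with it, and with median centring the scaffold genes had 1 higher and 2 lower. Dlg4, which encodes the scaffold PSD-95, was at -1.49, -1.10 and -0.91 in Per3 5/5 and -2.27, -1.81 and -1.48 in WT (0.64, adjusted p 0.00271; 0.55 and 0.0588 with the block). Of 19 GABA receptor subunit genes 2 were higher and 2 lower, and of 42 monoamine, histamine and acetylcholine receptor genes 6 were higher and 1 lower, with 0 called with the block in either. Of 21 neurotrophic genes, 7 were higher and 1 lower without the block and 0 were called with it, and Ngfr, a neurotrophin receptor of basal forebrain cholinergic neurons, was at -0.65, 0.06 and 1.09 in Per3 5/5 and -1.48, -0.76 and 0.08 in WT (0.73, adjusted p 0.022 by limma; 0.72 and 0.124 with the block).

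Genes of oligodendrocytes and astrocytes were called higher more often than lower without the block. Of all genes, 9.66% were higher and 10.9% lower without the block, and 0.873% and 1.56% with it. Of 29 genes of myelin and oligodendrocytes, 11 were higher and 0 lower without the block and 1 was higher with it, with a median difference of 0.27 and 0.23, and in cortex of -0.09. Bcas1, a marker of oligodendrocytes that have begun to make myelin, was at 2.93, 3.28 and 3.72 in Per3 5/5 and 2.44, 2.63 and 2.83 in WT with no overlap (0.66, adjusted p 0.00202; 0.61 and 0.0368 with the block). Among genes named after their values were seen, the myelin proteins Mobp (0.55), Cnp (0.37) and Mag (0.35) and the gap junction gene Gjc3 (0.51) were called without the block only, and Mbp (0.27) in neither fit. The mean level of the list was 1.81 to 2.10 in Per3 5/5 and 1.56 to 2.07 in WT, and WT replicates 2 (2.07) and 7 (1.84) lay inside the Per3 5/5 range.

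Of 24 astrocyte genes, 8 were higher (33.3%) and 3 lower (12.5%) without the block, beside 9.66% and 10.9% of all genes. With the block 4 were higher (16.7%), beside 0.873% of all genes. Aldoc, the aldolase of astrocytes, was at 7.30, 7.53 and 7.63 in Per3 5/5 and 6.84, 7.06 and 7.22 in WT with no overlap (0.44, adjusted p 0.00244; 0.41 and 0.0393 with the block). Acsbg1, which activates long-chain fatty acids, was at 4.63, 4.73 and 5.12 in Per3 5/5 and 4.23, 4.42 and 4.62 in WT with no overlap (0.40; 0.38 and adjusted p 0.0351 with the block). Ndrg2 (0.48; 0.46 and adjusted p 0.0338 with the block) and the folate enzyme Aldh1l1 (0.40; 0.40 and adjusted p 0.0384 with the block) were the others. The 3 called lower, without the block only, were the connexins Gja1 (-0.35) and Gjb6 (-0.35) and the intermediate filament Vim (-0.48), named after their values were seen. Gfap (0.27) and Aqp4 (0.41) were singled out as classical markers, and only Aqp4 was called, without the block. Egfl7, a secreted protein of endothelial cells, was the member of 24 endothelial and mural cell genes called in both fits, at 2.19, 2.48 and 2.62 in Per3 5/5 and 1.91, 2.05 and 2.16 in WT with no overlap (0.41; 0.32 and adjusted p 0.0286 with the block).

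Genes of energy metabolism came in 3 lists, set beside 9.66% higher and 10.9% lower among all genes without the block. Of 21 glycolysis and lactate genes, 8 were higher and 2 lower without the block and 2 were higher with it, Aldoc and Slc2a3. Slc2a3, the glucose transporter of neurons, was at 2.46, 2.71 and 2.75 in Per3 5/5 and 2.08, 2.32 and 2.36 in WT with no overlap (0.38, adjusted p 0.0014; 0.36 and 0.0197 with the block). Of 81 oxidative phosphorylation subunits 9 were higher (11.1%) and 5 lower (6.17%) without the block, near the shares of all genes. Of 34 genes of cholesterol and fatty acid synthesis 5 were higher (14.7%) and 2 lower (5.88%). With the block, Insig1, which holds back sterol synthesis, was the one called, at -1.37, -1.25 and -0.99 in Per3 5/5 and -1.89, -1.66 and -1.57 in WT with no overlap (0.47; 0.43 and adjusted p 0.028 with the block).

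Several lists of genes that handle RNA and protein were lower more often than higher without the block, where 10.9% of all genes were lower and 9.66% higher. Of 66 splicing genes, 20 were lower and 4 higher, with Sf3b6 of the U2 particle at 2.88, 3.20 and 3.33 in Per3 5/5 and 3.46, 3.67 and 4.67 in WT (-0.61, adjusted p 0.00687 by limma; 0.155 with the block). Of 78 mitochondrial ribosomal protein genes 18 were lower and 1 higher, with Mrpl3 at 1.78, 2.28 and 2.82 in Per3 5/5 and 2.69, 2.81 and 3.09 in WT (-0.55, adjusted p 0.00657; 0.0952 with the block). Translation factors had 13 of 64 lower and 2 higher, and endoplasmic reticulum chaperones 8 of 24 lower and 1 higher. Proteasome subunits had 7 of 50 lower (14.0%, near the share of all genes) and 0 higher. Psma1, a subunit of the proteasome ring, was at 3.33, 3.72 and 4.00 in Per3 5/5 and 4.00, 4.18 and 4.65 in WT with no overlap (-0.50, adjusted p 0.00327; 0.0595 with the block), and Herpud1, a part of the machinery that removes misfolded proteins, was at 2.33, 2.77 and 2.93 in Per3 5/5 and 2.90, 3.14 and 3.45 in WT (-0.44, adjusted p 0.00487; 0.0648 with the block). The 82 cytosolic ribosomal protein genes had 5 higher and 5 lower, and the 33 aminoacyl-tRNA synthetases went the other way, with 7 higher and 2 lower (0 with the block by limma, with 4 higher and 2 lower at an unadjusted p under 0.05) and a median difference of 0.07. In the 6 lists other than the synthetases lists, 0 genes were called by limma with scan day as a block, where 64 had an unadjusted p under 0.05 and were lower and 6 were higher. Without Per3 5/5 replicates 6 to 8 the lean was lost in translation factors (12 higher, 10 lower) and mitochondrial ribosomal proteins (9 and 12) and turned in proteasome subunits (9 and 3). In that fit 14.5% of all genes were higher and 13.9% lower.

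Zinc finger genes named Zfp had 61 of 334 members lower (18.3%) and 32 higher (9.58%) without the block and 5 and 2 with it. Among all genes 10.9% were lower and 9.66% higher without the block, and 1.56% and 0.873% with it. Zfp474 was at -3.51, -2.56 and -2.15 in Per3 5/5 and -2.18, -1.95 and -1.62 in WT (-0.68, adjusted p 0.00376; -0.82 and 0.028 with the block), and Zfp445, a regulator of imprinted loci, was at 0.04, 0.37 and 0.60 in Per3 5/5 and -0.77, -0.14 and -0.01 in WT with no overlap (0.53; 0.48 and adjusted p 0.036 with the block). Among 81 ubiquitin-conjugating enzymes and deubiquitinases, 12 were lower (14.8%) and 6 higher (7.41%) without the block, near the shares of all genes. Ube2e3 was lower at 2.61, 2.81 and 2.91 in Per3 5/5 and 3.11, 3.28 and 3.40 in WT with no overlap (-0.33 with the block, adjusted p 0.047), and Usp13 was higher at -2.47, -2.29 and -2.15 in Per3 5/5 and -2.80, -2.71 and -2.58 in WT with no overlap (0.32 with the block, adjusted p 0.0426). Of 317 solute carriers, 38 were higher (12.0%) and 26 lower (8.2%) without the block, near the shares of all genes, and 7 and 7 with it (2.21% each). Slc4a3, an anion exchanger of excitable cells, was higher at 1.61, 1.90 and 2.08 in Per3 5/5 and 1.09, 1.43 and 1.55 in WT with no overlap (0.44 with the block, adjusted p 0.0338).

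Genes of hypothalamic peptides and their receptors had few calls once scan day was in the fit. Of all genes, 9.66% were higher and 10.9% lower without the block, and 0.873% and 1.56% with it. Of 10 neurosecretory peptide genes 1 was called without the block, Th, the rate-limiting enzyme of dopamine synthesis, at -0.06, 0.76 and 1.12 in Per3 5/5 and -0.32, 0.19 and 0.53 in WT (0.55, adjusted p 0.0125; 0.49 and 0.104 with the block). Of 20 feeding peptides and receptors 6 were lower and 0 higher without the block and 0 were called with it by limma (0 higher and 7 lower at an unadjusted p under 0.05), while the median difference went from -0.21 to -0.26 with the block and -0.33 on day 3 alone. Sim1, a transcription factor of the paraventricular nucleus, was at -6.20, -6.19, -6.22 and -5.86 in the Per3 5/5 mice of day 1, at -3.78 to -3.45 in those of day 3 and at -3.86 to -2.90 in WT. Its difference of -1.45 (adjusted p 0.0474) became -0.26 with the block (adjusted p 0.423), and it was low on every Per3 5/5 array of day 1 and on none of day 3.

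Of 32 wake and sleep peptides and receptors, 3 were higher and 3 lower without the block (9.38% each) and 2 were higher with it (6.25%). The shares of all genes were 9.66% higher and 10.9% lower without the block, and 0.873% and 1.56% with it. Tacr1, the receptor for substance P, was at -1.06, -0.88 and -0.77 in Per3 5/5 and -1.71, -1.26 and -1.03 in WT (0.46, adjusted p 0.00355; 0.51 and 0.0338 with the block). Adcyap1r1, the receptor for the peptide PACAP, which carries light signals to the suprachiasmatic nucleus, was at 3.16, 3.32 and 3.46 in Per3 5/5 and 2.68, 2.95 and 3.05 in WT with no overlap (0.40, adjusted p 0.0014; 0.37 and 0.0277 with the block). Of 19 adenosine genes 4 were higher and 1 lower, and of 18 prostaglandin genes 1 and 3, and none of these was called in both fits. Of 17 genes of the corticosteroid and CRH stress axis, limma called 0 in either fit, with 3 higher and 1 lower at an unadjusted p under 0.05 without the block. Of 26 clock genes, 5 were higher and 3 lower without the block, and with it 1 was lower. That one was Fbxl21, which marks cryptochromes for turnover, at -2.30, -1.89 and -1.62 in Per3 5/5 and -1.63, -1.40 and -1.08 in WT (-0.51, adjusted p 0.00217; -0.43 and 0.0492 with the block). Of 32 immediate early genes, 2 were higher (6.25%) and 3 lower (9.38%) without the block, neither above the shares of all genes. With the block 1 was higher, Npas4, which neuronal activity induces. It was at -5.37, -4.80 and -4.45 in Per3 5/5 and -5.67, -5.29 and -4.80 in WT. The difference was 0.49 (adjusted p 0.0132 by limma), and 0.59 with the block (adjusted p 0.0492).

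**Figure D5:**
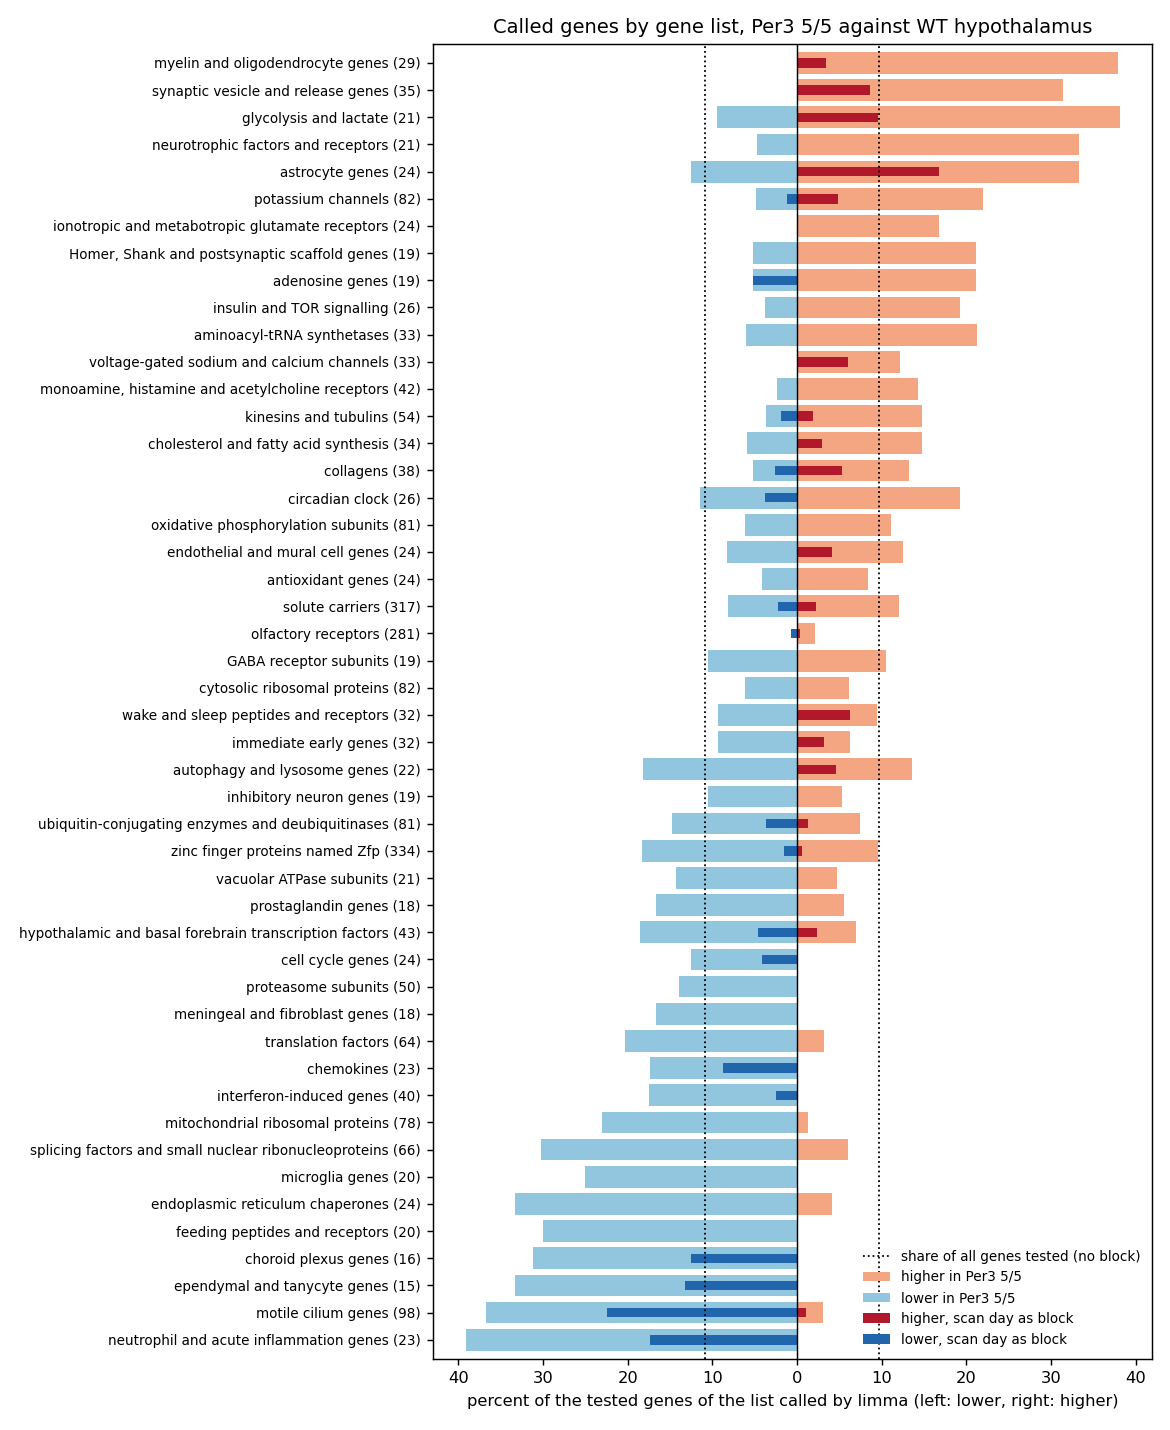
Percent of the tested genes of each list (number in brackets) called lower (left) or higher (right) in Per3 5/5 against WT hypothalamus by limma, without a block (light bars) and with scan day as a block (dark bars), for lists of at least 12 tested genes with at least 3 calls; dotted lines mark 10.9% lower and 9.66% higher among all 15924 named genes without the block. Motile cilium genes have the longest dark bar (22 of 98 lower), and the motile cilium list was chosen after values had been seen.

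Outside the lists, the genes with the largest differences called in both fits had varied functions. Higher in Per3 5/5 were Fcho1, which starts clathrin-coated pits (-4.10, -3.35 and -2.82 in Per3 5/5 and -4.97, -4.66 and -4.05 in WT; difference 1.15, 1.09 with the block), and Fat3, a giant cadherin that shapes dendrites (-2.71, -2.34 and -1.86 in Per3 5/5 and -4.29, -3.15 and -2.94 in WT, with no overlap; 1.04, 1.01 with the block). Doc2g of the Doc2 family was at -3.61, -3.32 and -2.87 in Per3 5/5 and -4.63, -4.23 and -3.80 in WT with no overlap (0.97; 0.87 with the block). Card10, a scaffold of NF-kB signalling, was at -1.86, -1.57 and -1.34 in Per3 5/5 and -3.24, -2.44 and -1.88 in WT with no overlap (0.88; 0.84 with the block), and Ncam1, the neural cell adhesion molecule, at -0.48, -0.26 and 0.18 in Per3 5/5 and -1.92, -0.98 and -0.70 in WT with no overlap (0.81; 0.77 with the block). Pitpnm2, Arhgef40, Eif2ak4 and Gm15328 were higher by 0.90, 0.79, 0.76 and 1.03 with the block, with overlap in each; Eif2ak4 is the kinase that senses missing amino acids. Adjusted p of these 9 genes with the block ran from 0.0197 (Fat3) to 0.0459 (Eif2ak4) by limma.

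Lower in both fits were Ces1d, a carboxylesterase (-5.68, -2.96 and -2.37 in Per3 5/5 and -2.98, -1.94 and -1.50 in WT; difference -1.58, -1.90 with the block), and Tmem267 (-1.56, -0.65 and 0.53 in Per3 5/5 and -0.06, 0.81 and 1.54 in WT; -1.45, -1.34 with the block). Cyp2a4, a steroid hydroxylase with a near-identical neighbour that can share its probe, was at -5.16, -4.80 and -4.24 in Per3 5/5 and -4.20, -3.60 and -2.66 in WT with no overlap (-1.25; -1.10 with the block). Lrat, which stores vitamin A as retinyl ester, was at -5.97, -5.58 and -5.04 in Per3 5/5 and -5.54, -4.39 and -3.55 in WT (-1.12; -1.04 with the block), and Plbd1, a phospholipase of myeloid cells, at -5.48, -3.87 and -3.28 in Per3 5/5 and -3.54, -3.10 and -2.56 in WT (-1.12; -1.27 with the block). Adjusted p with the block ran from 0.0258 (Ces1d) to 0.0465 (Lrat) by limma. Tmem267 was lower in cortex as well (-1.20, adjusted p 0.0111), and Fcho1 (1.04, adjusted p 0.0136) and Fat3 (0.61, adjusted p 0.00579) were higher there.

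Of the genes given above as called in both fits, some lost their call in another setting. With normexp these were Tcte3 (-0.40), Steap1 (-0.29), Padi4 (-0.23), Ccl11 (-0.14), Fpr2 (0.09), Zfp474 (-0.44), Lrat (-0.29) and Plbd1 (-0.56) among those lower. Among those higher they were Tbr1 (0.65), Syn2 (0.22), Slc2a3 (0.30), Usp13 (0.31), Npas4 (0.31), Doc2g (0.59), Arhgef40 (0.55), Eif2ak4 (0.44), Rtel1 (0.44), Zc3h7b (0.25) and Gm15328 (0.49). Without Per3 5/5 replicates 6 to 8, Capsl (-0.25), Lhx8 (1.43), Tbr1 (0.85), Syn2 (0.17), Kcna2 (0.38), Npas4 (0.32) and Eif2ak4 (0.46) lost theirs.

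The 19 probes called with the block and without WT replicate 8 were looked up after the fit. Besides Nr0b1 and Enkur, they were lower in Per3 5/5 at Saxo2 (-0.91), which binds microtubules of the axoneme, Efcab7 (-0.68), a protein of the ciliary base, Celsr1 (-0.74) and Crb2 (-0.68), which set the polarity of epithelia such as the ependyma, Btg3 (-0.72), an antiproliferative gene, the interferon gamma gene Ifng (-0.85; -0.10, adjusted p 0.765 by limma, with normexp, and -0.27, adjusted p 0.117, without Per3 5/5 replicates 6 to 8) and 1700012B09Rik (-0.64). Celsr1 was at -0.40, -0.12 and 0.01 in Per3 5/5 and 0.11, 0.35 and 0.84 in WT, with no overlap, and Crb2 was at -1.07, -0.54 and -0.13 in Per3 5/5 and -0.21, -0.02 and 0.10 in WT. Havcr1 (-1.45), Sectm1a (-1.42) and Fam169b were called lower in that fit too, at dim probes above background on 3, 2 and 0 Per3 5/5 arrays and on 6 WT arrays each. With normexp their differences were 0.14, 0.04 and -0.06 and none was called (adjusted p 0.739, 0.922 and 0.892 by limma). Havcr1 was called neither without a block nor with the block and all mice (adjusted p 0.424 and 0.0556), and its difference was 0.23 without Per3 5/5 replicates 6 to 8; Sectm1a was not called without a block (adjusted p 0.0562). Higher were Rnf208 (0.48), the helicase gene Rtel1 (0.68), Zc3h7b (0.45) and Wipi2 (0.43), which acts early in autophagy. Wipi2 was at 1.60, 1.77 and 2.01 in Per3 5/5 and 1.08, 1.23 and 1.28 in WT and Rnf208 at 2.17, 2.31 and 2.51 in Per3 5/5 and 1.36, 1.73 and 1.88 in WT, with no overlap in either. The last 3 probes carry no gene name here. Adjusted p in that fit ran from 0.0135 (Enkur) to 0.0476 (Rtel1) by limma.

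Per3 4/4 mice were compared with the same WT arrays, so their differences are set beside those of Per3 5/5 and not counted as a second finding. Nr0b1 was at -2.45, -2.24 and -2.04 in Per3 4/4 (difference from WT -0.76, adjusted p 0.00542 by limma; -1.21 in Per3 5/5), Enkur at -1.16, -0.98 and -0.62 (-0.65, adjusted p 0.00059; -0.78 in Per3 5/5) and Vamp1 at 2.99, 3.23 and 3.40 (0.65, adjusted p 0.00059; 0.61 in Per3 5/5). Tmem212 (-0.53, adjusted p 0.185) and S100a8 (-1.64, adjusted p 0.081) were not called in Per3 4/4. The median difference of the 98 motile cilium genes was -0.14 in Per3 4/4 and -0.26 in Per3 5/5. Whether the knock-ins differed from each other at these genes was not tested.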

How the data were processed

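RNA of hypothalamus and frontal cortex was hybridised to 1-colour Agilent arrays, and the groups were taken from the sample labels. The deposited scanner files hold, per the file headers, a processed intensity for each spot that Feature Extraction had background subtracted and spatially detrended, with no scaling between arrays, and the raw median intensity of the spot and its local background. Other deposited columns flag each spot with 0 or 1, for signal clearly over background, saturation and outliers. The authors also deposited a table of log2 values, shifted to the 75th percentile of each array in GeneSpring; 99.97% of its values lay within 0.05 of the scanner values processed as below and centred per probe.

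Levels were log2 processed intensity minus the log2 75th percentile of the non-control spots of the array. Outlier spots (48 to 119 per array) were left out, no spot was saturated, and the spots of 1 probe were averaged. Of 41174 probes, 30735 passed the background flag in at least 6 of the 8 mice of 1 or more genotypes and were tested. RefSeq accessions in the files gave symbols for 27668 probes (67.2%), and lists were counted with 1 probe per gene, the brightest tested.

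All 24 hypothalamus arrays entered 1 limma 3.58.1 fit (lmFit, eBayes, two-sided, R 4.3.3) with 3 genotype means; the tissue difference used hypothalamus minus cortex of each mouse. Benjamini-Hochberg adjustment ran over all probes tested. Scan day (from the headers) was added as a block because day 1 held no WT and day 2 no Per3 5/5 mouse. Alternatives were the scan day block with and without WT replicate 8, day 3 alone, slide as a random or fixed block, the replicate number as a block, leaving out each mouse, median, quantile and normexp scaling (offset 50), the deposited table, array weights, other filters, 2 genotypes only and the methods' t-test with adjustment. Fits without Per3 5/5 replicates 6 to 8, without scan day 1, and with the block leaving out each mouse were chosen after seeing the data. The rank product of the study was not run. The scripts were tested on simulated data. With 8 arrays per genotype their number limits the precision. Without the scan day block, the spread behind the p-values holds differences between scan days and slides as well as between mice. Differences between days also enter the genotype difference in that fit, because the 2 genotypes share only day 3.

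The groups, the 59 gene lists and the rule for named genes were chosen with earlier results of these data known, and the motile cilium list after values were seen; a list is described by counts and its median and carries no test. Named by the rule were Per3 and Homer1; the 12 genes in each direction with the largest difference (the smaller of both fits) among probes called in both fits, of the same sign on day 3 and over background in at least 6 mice of each genotype; up to 4 members of each list called in both fits, or up to 2 called without the block; the genes called for the tissue difference; and the pituitary list. Some genes that the rule named are not reported here by name and stay in the list counts. Other genes are marked as named after their values were seen. A probe above background on no array of a genotype has only a bound there, against the lowest signal of a probe above background on each array.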

Additional observations from a re-analysis of the deposited data

Results flagged for a closer look

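In 284 groups of 8 arrays (the named probes in each genotype), 36 held an array whose gap to its nearest neighbour was a large part of the range of the group (Dixon's test), where chance flags about 1 in 20 groups. WT replicate 8 was highest at the pituitary genes Gh (8.09), Prl (7.89), Cga (7.78), Pomc (7.36), Tshb (3.31), Lhb (2.64), Pitx1 (2.62), Fshb (0.78), Ghrhr (-0.0861) and Lhx3 (-3.12), at Dnajb9 (2.55), and lowest at Slc2a3 (2.08). WT replicate 3 stood apart in 15 groups. It was lowest at Homer1 (-5.13 and -4.32 at the probes A_51_P387159 and A_51_P387160), Kcna2 (-2.04), Ncam1 (-1.92), U2af2 (-2.12), H1f10 (-2.47), Zfp445 (-0.77), Col9a2 (-0.27), Kif9 (-3.22) and Rps6kb2 (-3.15), and highest at Dnah5 (-1.41), Sf3b6 (4.67), Eif2s1 (1.496), Atp6ap2 (4.35) and Ube2d3 (3.83). Single groups were set by WT replicate 7 at Ces1d (-2.98), WT replicate 6 at Slc26a3 (-5.02) and WT replicate 5 at Lhx4 (-3.05), and among Per3 5/5 mice by replicate 6 at Homer1 (-0.76, probe A_52_P151211), replicate 1 at Ngfr (1.09), replicate 7 at Zfp474 (-3.51) and Pomc (1.98), replicate 8 at Cga (3.70) and replicate 3 at Ghrhr (-6.54).

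The difference between genotypes, taken as hypothalamus minus cortex of each mouse, was called by limma at Nr0b1 (-1.93), Gm9758 (-2.98) and the unnamed probe A_52_P876147 (-1.06) (adjusted p 0.0273 each). All 3 probes were below background on all 16 cortex arrays, so the cortex side is unmeasured and a difference between tissues is not shown, and without WT replicate 8 limma called 0 probes (1759 at an unadjusted p under 0.05).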

How the results depend on the processing

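The count of 5788 probes became 644 with scan day as a block, 19 with that block and without WT replicate 8, 1 on scan day 3 alone, 3221 with slide as a random block, 0 with slide as a fixed block (1373 at an unadjusted p under 0.05 by limma), 1957 with normexp and 10397 with array weights. It stayed within 1.5 times under the replicate block (6407), the 2 genotypes alone (3958), median centring (5571), quantile normalization (5602), the deposited table (5755), the methods' t-test (4051 after Benjamini-Hochberg), no filter (4608), a stricter filter (5994), and, chosen after seeing the data, without Per3 5/5 replicates 6 to 8 (8388) and without scan day 1 (6611). Leaving out 1 mouse gave 4169 to 6423, and with the scan day block 19 to 1676, namely, for Per3 5/5 replicates 1 to 8, 647, 563, 339, 539, 1676, 130, 39 and 64, and for WT replicates 1 to 7, 392, 499, 1466, 567, 594, 36 and 615. Replicate numbers did not pair the mice: deviations of same-numbered mice correlated with r of 0.03 to 0.34, over 0.1 in 6 of 8 pairs, and 3 of 8 mice correlated best with their own number. The 3 probes of the tissue difference became 6 with the scan day block, 1 with it and without WT replicate 8, 5 with the replicate block, 0 for the 2 genotypes alone (1504 unadjusted by limma), 0 with median centring (1695 unadjusted) and 0 to 11 when 1 mouse was left out. The Per3 difference of 0.47 lost its call with the scan day block (0.32), also without WT replicate 8 (0.31), on day 3 alone (0.54), with slide as a fixed block (0.15) and with normexp (0.32), and was 0.39 to 0.51 when 1 mouse was left out. Of 141 named probes, 86 kept their direction and side of the threshold with the scan day block, 130 without WT replicate 8, 9 with both, 11 on day 3 alone, 90 with normexp, 136 with median centring and 137 with quantile normalization. Signs turned without WT replicate 8 at Prl (0.73), Gh (1.45), Lhb (0.27), Fshb (0.0922) and Ghrhr (0.57); with the scan day block as well at Prl (1.18), Gh (1.505) and Lhb (0.24); without scan day 1 at Prl (1.297) and Gh (1.52); on day 3 alone at Gabrg1 (0.0497); with normexp at Fpr2 (0.0866) and Lhx3 (0.0026); and without Per3 5/5 replicates 6 to 8 at Lhx4 (0.0326). The cause of these changes was not tested, and dim probes are limited by their signal over background.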
